A study of Mus musculus with 6 samples.

Results

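Liver uses the same steroid chemistry as the gonads and the adrenal gland, but largely to inactivate hormones that arrive in the blood. Cytochrome P450 17A1 (Cyp17a1) adds a hydroxyl group to pregnenolone and progesterone and splits their side chain to give androgens. The 3-beta-hydroxysteroid dehydrogenases (Hsd3b genes) and 17-beta-hydroxysteroid dehydrogenases (Hsd17b genes) interconvert hydroxyl and keto groups on the steroid nucleus, which switches androgens and oestrogens between strong and weak forms. The genes described here are the steroid hormone metabolizing enzymes of a fixed list of 10: Cyp17a1, Hsd3b2, Hsd3b3, Hsd3b5, Srd5a1, Srd5a2, Akr1c6, Hsd17b2, Hsd17b6 and Hsd17b11. A gene was included where at least 1 probe set carried its symbol alone in the array annotation, and the probe set of highest mean stood for it. Srd5a1 and Srd5a2 had none and were dropped, which left 8 genes of 19550 in the series. The list was chosen by the low values of Cyp17a1 in the ascorbic acid deficient knockouts, so these are given as a description and not as a test. The rest were chosen for their function, with earlier results of these data known.

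The samples were livers of male mice of the C57BL/6NCrSlc background on 6 arrays, with 2 arrays in each of 3 groups. SMP30/GNL KO mice lack senescence marker protein 30, the gluconolactonase of the ascorbic acid (AA, vitamin C) pathway encoded by Rgn, and so cannot make enough AA. One group of knockouts had neither AA in the diet nor in the water (AA-deficient), a second drank water with AA stabilised by EDTA (AA-supplemented), and the wild-type mice had a diet and water free of the vitamin. All mice thus shared the AA-free diet. AA-deficient knockouts differed from wild type both in the loss of SMP30 and in the AA they could make. Comparing these groups cannot tell loss of the protein from lack of the vitamin. The sources used here give neither the ages of the mice nor the time of day at which livers were taken. Whether water without AA held EDTA is also unknown here, so AA and EDTA cannot be told apart between the knockout groups. The part of Rgn removed in the knockouts was not stated either.

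Values are given in the deposited log units, read as log10, and a fold is 10 to the power of a difference. Levels of different genes come from different probes and are not set against each other. Rgn was at 0.23 and 0.30 on the AA-deficient arrays and at 0.34 and 0.14 on the AA-supplemented arrays, against 2.07 and 2.0 in wild type, so that each array matched its labelled genotype. Array medians lay between 0.35 and 0.39. The 2 arrays of the AA-supplemented group differed from each other by more than those of the other groups, with an SD of replicate differences over genes of 0.104 against 0.0794 in AA-deficient knockouts and 0.0788 in wild type. The labels do not tie each array to its own animal, so a p-value here reflects the spread between arrays alone, and that spread may be technical. In whole liver, less RNA per cell and fewer cells of a type cannot be told apart.

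The tissue was checked against cell markers. All 10 hepatocyte markers were measured, and their summed linear level ran from 1400 to 1440 in AA-deficient knockouts, 1280 to 1780 in AA-supplemented knockouts and 1210 to 1390 in wild type. Against wild type, 9 of the 10 had differences above 0 in AA-deficient knockouts (median 0.04) and all 10 in AA-supplemented knockouts (median 0.06). Over all genes tested the medians were -0.0034 and -0.0017. Between the knockout groups 3 of the 10 were above 0 (median -0.03). In each comparison 0 passed the threshold. Of 10 markers of adrenal and gonadal steroid-making cells, 8 had a value, and Star, Cyp11a1 and Cyp11b1 lay among the dimmest 25% of genes on these arrays. Star, which delivers cholesterol to the first enzyme of steroid synthesis, was at 0.13 on both AA-deficient arrays, and Cyp11a1, that first enzyme, at -0.03 and 0.01. The summed level of the 8 markers was 26.0 to 27.4 in AA-deficient knockouts, 24.3 to 27.2 in AA-supplemented knockouts and 22 to 22.2 in wild type. Such a sum rests most on its brightest genes, here Fdx1 and Mc2r, the corticotropin receptor. Of the 5 markers tested, 3 had differences above 0 in AA-deficient knockouts against wild type and 2 below. Fdx1 was lower in AA-deficient knockouts (mean 0.88) than in wild type (mean 0.93). Mc2r was at 0.93 and 1.07 on the AA-deficient arrays, 0.93 and 0.97 on the AA-supplemented arrays and 0.70 and 0.66 in wild type. It rose in AA-deficient knockouts against wild type by 0.32 (SE 0.054, adjusted p = 0.0246 in limma), and it was 0.27 higher in AA-supplemented knockouts without passing (adjusted p = 0.190), so that both knockout groups lay above wild type.

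Markers of the other liver cells were counted as well. Of all genes tested, 4.63% passed in AA-deficient knockouts against wild type, 3.08% as a rise. Of 7 sinusoidal endothelium markers 1 rose in AA-deficient knockouts against wild type, the scavenger receptor gene Stab2, at 1.09 and 1.11, then 1.0 on both AA-supplemented arrays, then 0.81 and 0.90 in wild type (0.24, SE 0.045, adjusted p = 0.0320 in limma). The median of that list was 0.06 there, and its summed level overlapped between these groups, at 137 to 143 in AA-deficient knockouts and 135 to 147 in wild type, with 127 to 129 in AA-supplemented knockouts. All 8 Kupffer cell markers had differences above 0 in AA-deficient knockouts against wild type, with a median of 0.05 and 0 past the threshold, or at an unadjusted p under 0.05, in limma. Their summed level was 79.3 to 99.4, 70 to 90.5 and 74.4 to 81.3 in AA-deficient, AA-supplemented and wild-type livers. In the same order it was 72.3 to 77.8, 59 to 74.9 and 74.8 to 84.9 for 7 stellate cell markers, 8.33 to 10.1, 8.5 to 10.5 and 8.95 to 10.8 for 5 bile duct markers, and 9.40 to 14.3, 9.95 to 11.5 and 10.5 to 11 for 6 lymphocyte markers. None of the genes tested from these last 3 lists passed in any comparison in limma, and 2, 0 and 0 of them had an unadjusted p under 0.05 in AA-deficient knockouts against wild type. Cftr of the bile duct list and Ms4a1 of the lymphocyte list lay near or below 0 in the deposited log units. The part of these markers in the results below was not tested.

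The Hsd3b genes lie side by side on chromosome 3, in the order Hsd3b5, Hsd3b2, Hsd3b3, with only the pseudogenes Gm12399 and Gm12400 between Hsd3b5 and Hsd3b2. The 250 bases before their start sites are shown, from RefSeq on GRCm38.p6, each read on the minus strand from 5′ to 3′. They were picked because both AA-deficient arrays exceeded both AA-supplemented arrays for all 3, as given below. The same held for Hsd17b2 and Hsd17b6 and, over all genes tested, for 19.8%. The windows are chr3:98724544-98724793 for Hsd3b2, chr3:98763129-98763378 for Hsd3b3 (the first of 2 start sites listed) and chr3:98645535-98645784 for Hsd3b5. Capitals mark the longest run of bases shared letter for letter by Hsd3b3 and Hsd3b5.
Hsd3b2: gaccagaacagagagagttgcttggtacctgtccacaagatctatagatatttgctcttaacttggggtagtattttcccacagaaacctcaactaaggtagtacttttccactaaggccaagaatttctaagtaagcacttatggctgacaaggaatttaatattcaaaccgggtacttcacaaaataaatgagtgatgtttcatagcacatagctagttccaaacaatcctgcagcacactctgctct
Hsd3b3: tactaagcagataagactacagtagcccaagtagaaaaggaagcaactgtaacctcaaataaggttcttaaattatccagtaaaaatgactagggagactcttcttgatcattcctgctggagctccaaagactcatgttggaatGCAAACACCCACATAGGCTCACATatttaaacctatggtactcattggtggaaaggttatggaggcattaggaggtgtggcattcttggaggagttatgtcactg
Hsd3b5: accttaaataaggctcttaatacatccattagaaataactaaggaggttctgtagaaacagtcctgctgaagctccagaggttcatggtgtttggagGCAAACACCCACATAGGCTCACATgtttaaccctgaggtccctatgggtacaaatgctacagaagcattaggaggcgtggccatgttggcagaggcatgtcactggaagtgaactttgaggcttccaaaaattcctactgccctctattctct

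The shared run of Hsd3b3 and Hsd3b5 was 24 bases long and began 105 bases before the start site of Hsd3b3 and 153 before that of Hsd3b5. In the other 14 pairs among the 6 members with a window in the table, the longest shared run was 7 to 10 bases, and it was 8 between Hsd3b2 and either neighbour. Each window was searched on both strands for 3 motifs that do not overlap one another here. The letters TATAAA, a common core promoter element, occurred in none of the Hsd3b windows and in 12.4% of all 32851 windows of this length. TTCNNNGAA, the STAT5 element through which growth hormone acts on liver genes, occurred in none of the 6 member windows and in 7.02% of all. TGTTCT, the half-site bound by glucocorticoid and androgen receptors, was found once in the Hsd3b2 window, 246 bases before the start site, in none of the other 5, and in 16.1% of all windows. These letter matches are descriptions of the windows and do not show binding. The Hsd3b genes are close copies of one another, and how far their probes tell them apart was not tested. A probe set shared by Hsd3b5, Hsd3b4 and Gm10681 was left out.

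Cyp17a1 was lowest in AA-deficient knockouts, intermediate in AA-supplemented knockouts and highest in wild type. Its value was 0.59 and 0.45 on the AA-deficient arrays, 0.75 and 0.74 on the AA-supplemented arrays, and 1.05 and 0.97 in wild type. The 3 groups did not overlap at any point of this order. The means were 0.52 ± 0.0975 (SD, n = 2), 0.74 ± 0.0029 and 1.01 ± 0.0513. AA-deficient knockouts were lower than AA-supplemented ones by 0.22 (SE 0.055), which is 1.68-fold, and lower than wild type by 0.49 (SE 0.055), which is 3.10-fold. Both of these differences led to the choice of the gene and carry no test. Leaving out 1 array at a time, the difference between the knockout groups lay between -0.29 (without AA-deficient array 1) and -0.16 (without AA-deficient array 2).

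AA-supplemented knockouts differed from wild type both in the loss of SMP30 and in the AA, stabilised by EDTA, in their water. Comparing these groups cannot tell genotype and water apart. For Cyp17a1 the difference between them was -0.27 (SE 0.055, a 1.85-fold lower level), and it ran from -0.30 to -0.23 leaving out 1 array. It is exactly the gap between the other 2 differences and rests on arrays that entered them, so it is not independent of the choice of the gene and carries no test either.

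**Figure D1:**
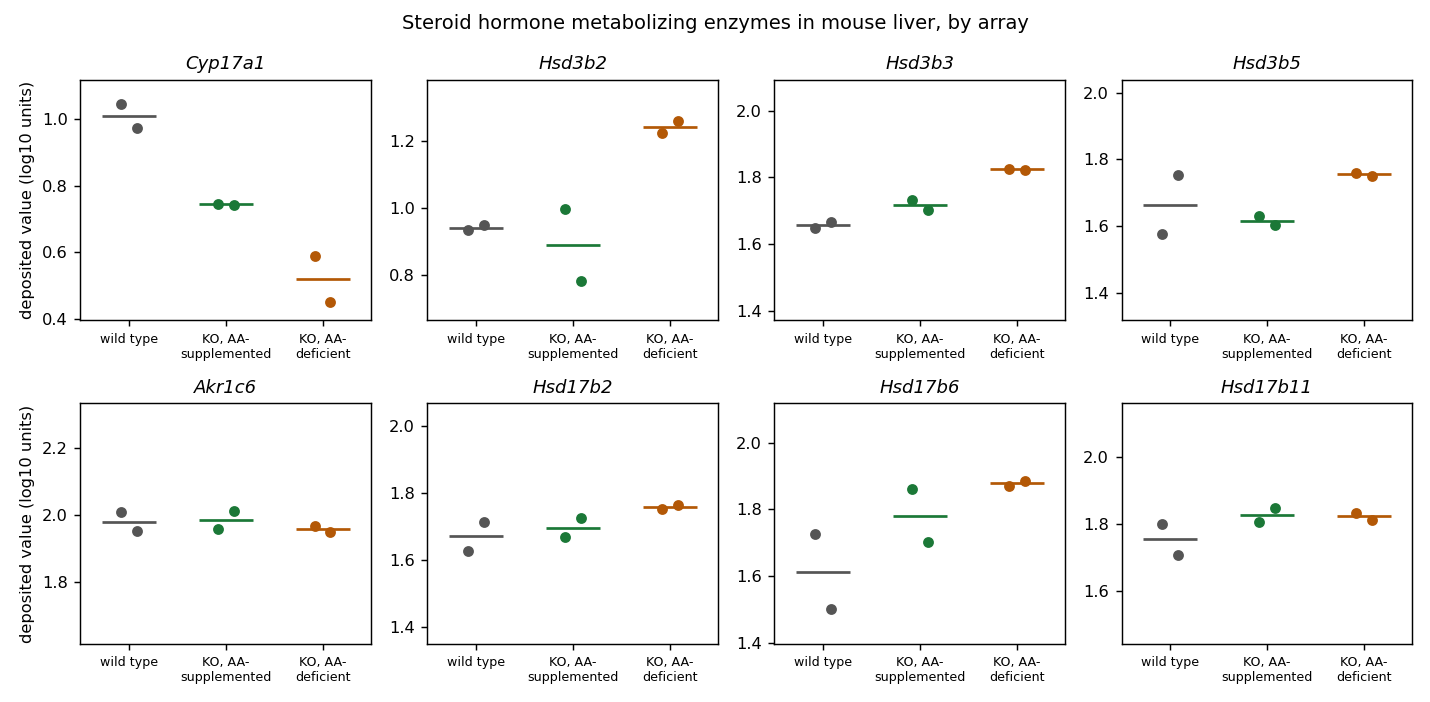
Deposited value (log10 units) of each of the 8 genes on each array, with wild type in grey, AA-supplemented knockouts in green and AA-deficient knockouts in orange. Points are single arrays and bars are the means of 2 arrays; each panel spans the same range of log units around its own mean. Cyp17a1 steps down from wild type to the AA-deficient knockouts, and Hsd3b2 and Hsd3b3 stand highest on both AA-deficient arrays.

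Of the Hsd3b genes in the list, Hsd3b2 rose in AA-deficient knockouts against wild type, and Hsd3b3 and Hsd3b5 passed in no comparison. Hsd3b2 encodes a 3-beta-hydroxysteroid dehydrogenase and isomerase, the kind that turns pregnenolone into progesterone. It was at 1.23 and 1.26 on the AA-deficient arrays, at 1.0 and 0.78 on the AA-supplemented arrays and at 0.93 and 0.95 in wild type. Both AA-deficient arrays lay above all other arrays, and the AA-supplemented arrays spread to either side of wild type. Against wild type Hsd3b2 rose by 0.30 (SE 0.067, 2.01-fold, adjusted p = 0.0476 in limma), just inside the threshold of 0.05. Against AA-supplemented knockouts it differed by 0.35 (SE 0.067, 95% interval 0.20 to 0.51, 2.25-fold) and did not pass (adjusted p = 0.118). The second of these differences was 0.46 without AA-supplemented array 1 (adjusted p = 0.0238, with 0.314% of all genes called) and 0.25 without AA-supplemented array 2. In such a fit the group left with 1 array is assumed to vary like the others, so its p-value rests on their spread.

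The rise of Hsd3b2 against wild type held its size but not its call. Its difference lay between 0.29 and 0.32 when any array was left out, and its adjusted p was 0.130 and 0.205 without AA-deficient arrays 1 and 2 and 0.258 and 0.211 without wild-type arrays 1 and 2. The number of all genes called fell from 679 to 140, 88, 1 and 1 in these same fits. AA-supplemented knockouts differed from wild type by -0.05 (SE 0.067, 95% interval -0.21 to 0.10, adjusted p = 0.843), and the sign turned to 0.06 without AA-supplemented array 2.

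Hsd3b3, a further dehydrogenase and isomerase found in liver and kidney, was at 1.82 on both AA-deficient arrays, at 1.73 and 1.70 on the AA-supplemented arrays and at 1.65 and 1.67 in wild type. The 3 groups did not overlap, in the reverse order to Cyp17a1. Against wild type it was 0.17 higher in AA-deficient knockouts (SE 0.040, 95% interval 0.07 to 0.26, 1.47-fold) and missed the threshold narrowly (adjusted p = 0.0562 in limma). It differed by 0.11 from AA-supplemented knockouts (SE 0.040, adjusted p = 0.408), and these differed from wild type by 0.06 (SE 0.040, adjusted p = 0.655). With a filter that kept only the brighter 50% of genes, the first of these passed (adjusted p = 0.0277 in limma), as did 10.8% of the genes then tested. It also passed with a trended spread (0.0169), a trended and robust one (0.0137) and only the 4 arrays compared (0.0464). All genes called were then 8.67%, 8.95% and 7.03%. Its adjusted p was larger with quantile normalisation (0.0924), centred arrays (0.119), no filter (0.113) and a replicate block (0.126).

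Hsd3b5 is the male-predominant liver member of the family and works as a ketosteroid reductase that inactivates androgens. It was at 1.76 and 1.75 on the AA-deficient arrays and at 1.63 and 1.60 on the AA-supplemented arrays. In wild type it was at 1.58 and 1.75, so that 1 wild-type array sat with each knockout group. AA-deficient knockouts exceeded AA-supplemented ones by 0.14 (SE 0.059, 1.38-fold) without passing (adjusted p = 0.492 in limma). The difference from wild type was 0.09 (SE 0.059, 95% interval -0.05 to 0.23), and it was 0.0032 without wild-type array 1 and 0.18 without wild-type array 2.

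Hsd17b6, an oxidoreductase of the reduced androgens that converts androstanediol back toward more active forms, had the widest difference from wild type among the 17-beta-hydroxysteroid dehydrogenases listed. It was at 1.87 and 1.89 on the AA-deficient arrays, 1.86 and 1.70 on the AA-supplemented arrays and 1.73 and 1.5 in wild type. The AA-deficient arrays lay above all others, while the AA-supplemented arrays overlapped wild type. Against wild type it was 0.26 higher in AA-deficient knockouts (SE 0.079, 95% interval 0.08 to 0.45, 1.84-fold, adjusted p = 0.108 in limma) and did not pass. This value was 0.15 without wild-type array 2 and 0.38 without wild-type array 1. With a trended spread Hsd17b6 passed (adjusted p = 0.0446 in limma), as did 8.67% of all genes. With a trended and robust one it did not (adjusted p = 0.0697).

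Hsd17b2 oxidises oestradiol and testosterone to their weak keto forms. It was at 1.75 and 1.77 on the AA-deficient arrays, 1.67 and 1.73 on the AA-supplemented arrays and 1.63 and 1.71 in wild type. The AA-deficient arrays were again the highest, by a small step, with differences of 0.06 (SE 0.047, adjusted p = 0.772) from AA-supplemented knockouts and 0.09 (SE 0.047, 95% interval -0.02 to 0.20, adjusted p = 0.338) from wild type in limma. Leaving out 1 array, the first ran from 0.03 (without AA-supplemented array 1) to 0.09, and the second from 0.05 (without wild-type array 1) to 0.13 (without wild-type array 2).

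Akr1c6 and Hsd17b11 had small differences, with 95% intervals that took in 0 in every comparison. Akr1c6 is the mouse aldo-keto reductase that acts as a 17-beta-hydroxysteroid dehydrogenase in liver. Its values were 1.97 and 1.95 in AA-deficient knockouts, 1.96 and 2.01 in AA-supplemented knockouts and 2.01 and 1.95 in wild type, and the groups overlapped in every comparison. The 95% interval of its difference from wild type in AA-deficient knockouts was -0.12 to 0.08. Hsd17b11, an enzyme of lipid droplets that oxidises androstanediol, was at 1.83 and 1.81, at 1.81 and 1.85, and at 1.80 and 1.71 in the same order of groups. Both knockout groups lay above wild type, by 0.07 each (SE 0.047), and the knockout groups overlapped. Without wild-type array 2 these differences were 0.02 and 0.03, and without wild-type array 1 both were 0.12.

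**Figure D2:**
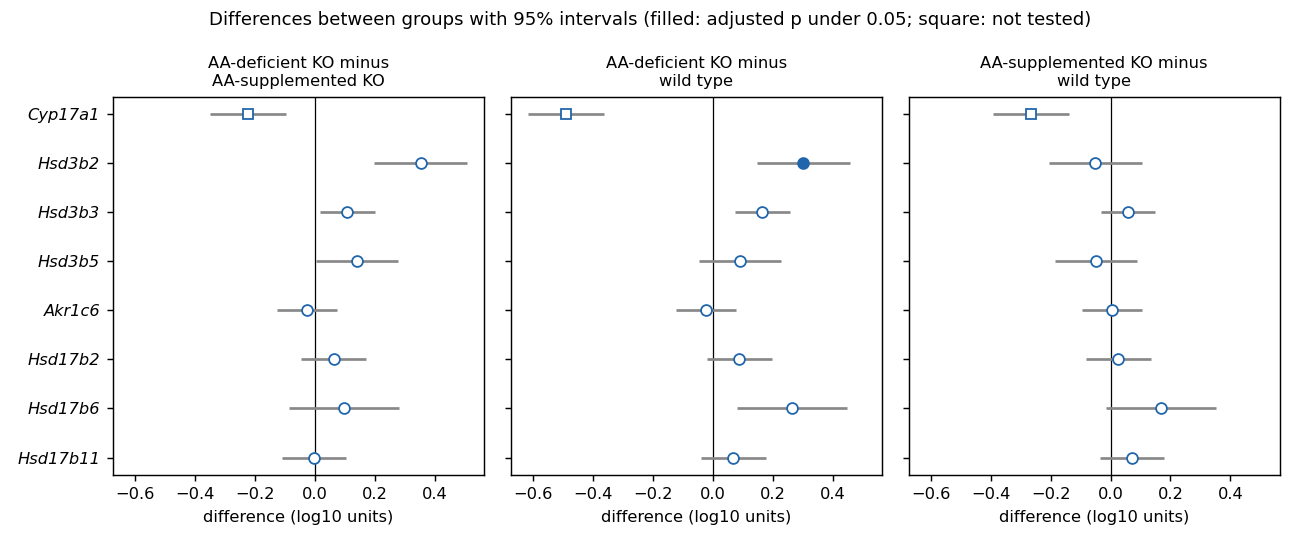
Difference between group means (log10 units) for each gene in each comparison, with its 95% interval from limma. The filled point is Hsd3b2 against wild type (0.30), the 1 gene past an adjusted p of 0.05. Squares mark Cyp17a1, which was not tested. The intervals of Cyp17a1 rest on the values it was chosen on, so whether they take in 0 is no test.

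Of the 7 members other than Cyp17a1, 1 passed in AA-deficient knockouts against wild type, Hsd3b2, as did 4.63% of the 14662 genes tested (3.08% as a rise), and 3 had an unadjusted p under 0.05, as did 20.4% of all. The median difference of the 7 was 0.09, against -0.0034 over all genes tested. Between the knockout groups 0 of the 7 passed in limma and 3 had an unadjusted p under 0.05, where 0.205% and 9.92% of all genes did so. With a trended estimate of the spread 1 passed, again Hsd3b2, as did 1.05% of all genes, or 154 where the untrended fit called 30. The median of the 7 in this comparison was 0.10, against 0 over all genes tested. These comparisons share the AA-deficient arrays, and the list was drawn up with them in view, so nothing further is read from the counts. In AA-supplemented knockouts against wild type 0 of the 7 passed in limma and 0 had an unadjusted p under 0.05, against 0.00682% and 10.6% of all genes.

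The arrays of the groups compared did not overlap for 5 of the 7, all higher in AA-deficient knockouts, both against AA-supplemented knockouts and against wild type. Over all genes tested the same held, as a higher value, for 19.8% and 27.6%. In AA-supplemented knockouts against wild type 2 of the 7 were higher without overlap, Hsd3b3 and Hsd17b11, and Cyp17a1 was lower, against 19.8% higher and 18.8% lower over all genes. Hsd3b2, Hsd3b3, Hsd17b2 and Hsd17b6 lay highest on both AA-deficient arrays in both comparisons. All 8 members had means above the filter on low values.

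Other genes of steroid synthesis and breakdown were counted from 4 lists, and sex-biased liver genes from 2 more. Of the 10 list and marker genes called in AA-deficient knockouts against wild type, 3, Fkbp5, Trim24 and Ugt2b35, kept the call with no filter on low values. In that setting 0.885% of all genes were called, in place of 4.63%. With a replicate block 4 of the 10 stayed, and 1.11% of all genes were called. None of the 10 kept the call when either wild-type array was left out, and nearly all genes lost theirs in those fits. Leaving out either AA-deficient array lost part of the 10, and most calls over all genes. In synthesis and its cofactors, 9 of 17 genes could be tested. While 4.63% of all genes passed in AA-deficient knockouts against wild type, 1 of these 9 did. This was Cyb5b, a cytochrome b5 of the outer mitochondrial membrane, which rose by 0.20 (SE 0.045, adjusted p = 0.0464 in limma). The median of the list was 0.02 there, against -0.0034 over all genes. With arrays centred on the median the call of Cyb5b was lost (adjusted p = 0.0637 in limma). Of the remaining members of the Hsd3b cluster, chosen for their family, Hsd3b1 lay under the filter and Hsd3b6 was at 0.38 and 0.39 on the AA-deficient arrays, 0.40 and 0.43 on the AA-supplemented arrays and 0.36 and 0.40 in wild type.

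Among 20 other hydroxysteroid dehydrogenases and reductases tested, 1 passed in AA-deficient knockouts against wild type, as did 4.63% of all genes. The list median there was 0.02. Rdh16, a short-chain dehydrogenase that acts on retinol and on hydroxysteroids, rose by 0.36 (SE 0.074, 2.27-fold, adjusted p = 0.0420 in limma). Its values were 1.41 and 1.31 on the AA-deficient arrays, 1.14 and 0.91 on the AA-supplemented arrays and 1.03 and 0.98 in wild type. Like Hsd3b2, it was high on both AA-deficient arrays alone.

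In steroid hydroxylation and conjugation 18 genes were tested and 2 rose in AA-deficient knockouts against wild type, with 0 falling. Over all genes tested, 3.08% rose past the threshold there. Ugt2b35, a glucuronosyltransferase of the family that conjugates androgens, was at 1.74 and 1.72, then 1.54 and 1.59, then 1.35 and 1.37 in AA-deficient, AA-supplemented and wild-type arrays, and rose by 0.37 (SE 0.041, 2.34-fold, adjusted p = 0.00743 in limma). The groups were ordered as for Hsd3b3, with no overlap. The other was Cyp3a25, a P450 of the family that hydroxylates steroids, at 0.20 (SE 0.044, adjusted p = 0.0458). Its call was lost with quantile normalisation (adjusted p = 0.0708 in limma) and with arrays centred on the median (adjusted p = 0.0722). Sult1e1, the sulfotransferase that inactivates oestrogens, was singled out after its values were seen. It was at 0.64 and 1.28 on the AA-supplemented arrays, against 0.10 and 0.21 in AA-deficient knockouts and 0.29 and 0.26 in wild type. The AA-deficient group differed from the AA-supplemented one by -0.80 (SE 0.17, 6.36-fold), which did not pass (adjusted p = 0.144), and the supplemented arrays lay far apart from each other. With only the first AA-supplemented array the difference was -0.48, and with only the second it was -1.12.

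Among 12 receptors, binding proteins and uptake genes tested, 1 rose and 1 fell in AA-deficient knockouts against wild type. Over all genes tested, 4.63% passed there, 3.08% as a rise. Nr3c2, the mineralocorticoid receptor, was at 0.59 and 0.73 on the AA-deficient arrays, 0.31 and 0.39 on the AA-supplemented arrays and 0.36 on both wild-type arrays, and rose by 0.30 (SE 0.056, 2.0-fold, adjusted p = 0.0311 in limma). Fkbp5, a co-chaperone that the glucocorticoid receptor induces, fell against wild type by 0.68 (adjusted p = 0.00327) and against AA-supplemented knockouts by 0.50 (adjusted p = 0.0263). The second of these calls was lost with no filter (adjusted p = 0.0899), with only the 4 arrays compared, with the replicate block, and without AA-deficient array 1, AA-supplemented array 2 or either wild-type array. Its values were 0.46 and 0.55, 1.06 and 0.96, and 1.16 and 1.22 in the same order of groups, as for Cyp17a1 without overlap. Serpina6, the plasma carrier of glucocorticoids, was named after its values were seen. It was 0.17 higher than in wild type (SE 0.048, adjusted p = 0.0839) and did not pass.

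Steroid enzymes of mouse liver often differ between the sexes through the pattern of growth hormone release, so sex-biased genes were counted too. Of 17 male-biased genes tested, 0 passed in any comparison in limma. At an unadjusted p under 0.05 there were 3 between the knockout groups, 5 in AA-deficient and 3 in AA-supplemented knockouts against wild type, where 9.92%, 20.4% and 10.6% of all genes had one. The list medians were -0.06, -0.03 and 0.06 in that order. The members of smallest p were Susd4, Elovl3, a fatty acid elongase, and Ugt2b38. Susd4 differed by 0.22 (SE 0.047, adjusted p = 0.190) in AA-supplemented knockouts against wild type. Elovl3 differed by 0.20 (SE 0.049, adjusted p = 0.0656) in AA-deficient knockouts against wild type. Ugt2b38 differed by -0.19 (SE 0.053, adjusted p = 0.254) between the knockout groups. Moxd1, singled out after its values were seen because it lay farthest from 0, was at 0.52 and 0.34 on the AA-deficient arrays, 0.40 and 1.5 on the AA-supplemented arrays and 0.97 and 1.64 in wild type. Its difference from wild type in AA-deficient knockouts was -0.87 (SE 0.33, adjusted p = 0.185), and it was -0.54 without wild-type array 2 and -1.21 without wild-type array 1.

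Of 14 female-biased genes tested, 2 fell in AA-deficient knockouts against wild type and 0 rose, where 4.63% of all genes passed. In the other comparisons 0 passed in limma. At an unadjusted p under 0.05 there were 6 between the knockout groups, 3 in AA-deficient and 8 in AA-supplemented knockouts against wild type. Of all genes, 9.92%, 20.4% and 10.6% had one. The list medians were -0.03, -0.04 and -0.03 in that order. Trim24, a transcriptional cofactor, was at 0.69 and 0.63, 0.85 and 0.86, and 1.02 and 0.98 in AA-deficient, AA-supplemented and wild-type arrays, and fell by 0.34 (SE 0.043, 2.18-fold, adjusted p = 0.0111). Cyp2b10, the P450 induced by the receptor CAR, fell by 0.51 (SE 0.11, 3.25-fold, adjusted p = 0.0458 in limma). It was at 0.37 and 0.26 on the AA-deficient arrays, 0.72 and 0.36 on the AA-supplemented arrays and 0.73 and 0.92 in wild type. With quantile normalisation the call was lost (adjusted p = 0.0544 in limma).

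**Figure D3:**
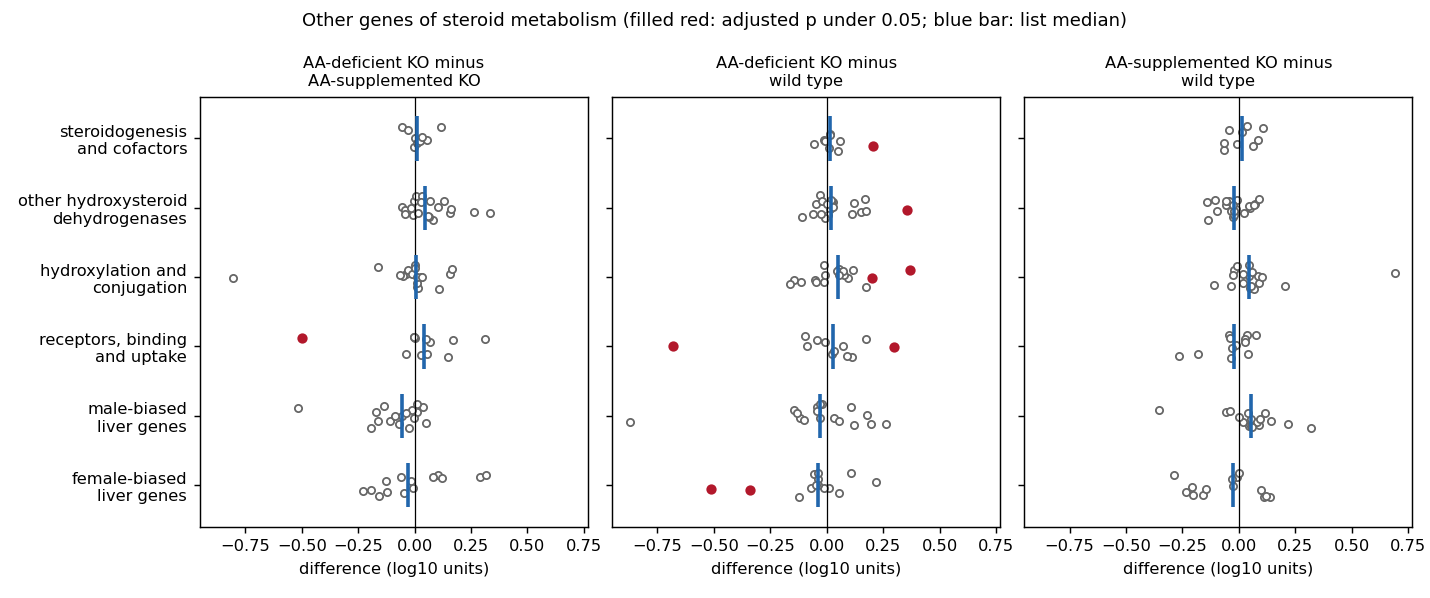
Difference between group means (log10 units) for the tested genes of 6 lists in each comparison; points are genes, red points passed an adjusted p of 0.05 and blue bars are list medians. The red points are few: Fkbp5 between the knockout groups, and 8 genes in AA-deficient knockouts against wild type, with 0 in AA-supplemented knockouts against wild type.

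The genes whose course over the 6 arrays was nearest to that of Cyp17a1 were sought among 13901 genes by the root mean square difference between deviations from each gene's own mean. They were Hopx, a homeodomain-only protein, at 0.0646, Trim24 at 0.0699, Cidec, a lipid droplet protein, at 0.0721, the olfactory receptor gene Olfr771 at 0.0722 and Apoa4, a plasma apolipoprotein, at 0.0727. Hopx was at 0.78 and 0.80 on the AA-deficient arrays, 1.04 and 1.07 on the AA-supplemented arrays and 1.23 and 1.24 in wild type, without overlap. Cidec was at 0.21 and 0.20, 0.48 and 0.51, and 0.63 and 0.72 in the same order. Olfr771 lay low throughout, between -0.0045 and 0.40. Likeness over 6 arrays in 3 groups is a description and carries no test.

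**Figure D4:**
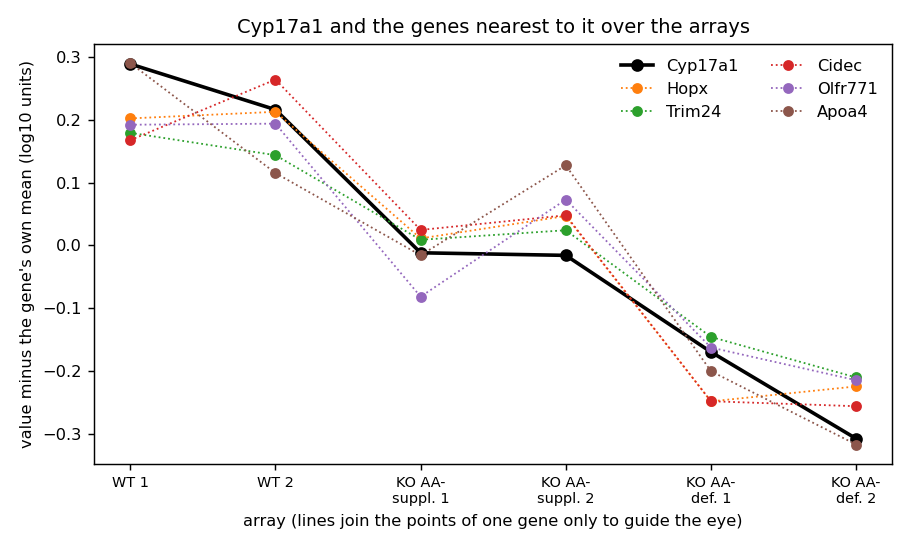
Value of Cyp17a1 (black) and of the 5 genes nearest to it, as deviation from each gene's own mean (log10 units), on the 6 arrays from wild type to AA-deficient knockouts. All fall from wild type to the AA-deficient arrays, and Apoa4 and Olfr771 differ most between the AA-supplemented arrays.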

How the data were processed

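Total RNA of homogenised liver was extracted with ISOGEN and biotin-labelled for Affymetrix arrays, per the labels' protocols. The deposited table holds 1 log-scale value for each probe set and array, taken here as log10 because the span from lowest to highest value would be only 8.48-fold on a log2 scale, 21.8-fold on a natural log scale and 1213-fold on a log10 scale. The sources used here do not give the background correction, summary or normalisation behind the authors' values. The number of arrays limits the precision, and no detection calls were used. Of 34760 probe sets, 30765 had values, 21161 of these with 1 gene symbol, 1150 with several and 8454 with none in the platform annotation. The probe set of highest mean was kept for each gene. Genes with a mean in the upper 75% (0.185 or more), 14662 in all, entered a linear model in limma 3.58.1 (R 4.3.3) on the 6 arrays in 1 fit (3 residual and 4.89 prior degrees of freedom), two-sided, with Benjamini-Hochberg adjustment over all genes tested. An adjusted p under 0.05 passed. An exact permutation test of 2 arrays against 2 cannot go below 0.333 and was not used. The fit was tested on simulated data. A planned test of Cyp17a1 between AA-supplemented knockouts and wild type was not used, because that contrast is the gap between the 2 it was chosen on. The members, lists and tests were chosen with earlier results of these data known. Named were all members, list genes past the threshold (otherwise up to 3 of smallest p), marker genes past the threshold, and the 5 genes nearest to Cyp17a1. Rgn checked the labels. Outside this rule, Sult1e1, Serpina6 and Moxd1 were named after their values were seen, and Hsd3b1 and Hsd3b6 for their family. Star, Cyp11a1, Cyp11b1, Fdx1, Cftr and Ms4a1 were named only to describe the level of marker lists. Promoter windows came from RefSeq, for 6 of 8 members. Alternatives were other normalisations, filters, spread estimates, a replicate block, the mean of probe sets and leaving out each array.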

Additional observations from a re-analysis of the deposited data

How the results depend on the processing

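Of 360 member differences recomputed under another setting, 216 could not move by construction (filters, spread estimates, the replicate block and the like), and of the other 144, 12 changed sign. The rise of Hsd3b2 against wild type was not among these. Of the 7 members tested, 1 passed in AA-deficient knockouts against wild type (4.63% of all genes). This became 0 with arrays centred on the median (3.64%), with no filter (0.885%) and with a replicate block (1.11%), 2 with a filter at the 50th percentile (10.8%), with a trended and robust spread (8.95%) and with only the 4 arrays compared (7.03%), and 3 with a trended spread (8.67%); it was 0 in the settings that called the fewest genes overall and 2 or 3 in those that called the most. Leaving out 1 array gave 0 to 2. Between the knockout groups the 0 became 1 with a trended spread (1.05%) or a trended and robust one (1.21%), and 0 to 1 leaving out 1 array. Genes of all 6 pathway and sex-biased lists past the threshold in AA-deficient knockouts against wild type were 8, and 3 with no filter, 13 with a filter at the 50th percentile or a trended spread, 15 with a trended and robust one, 4 with the replicate block, and 0 to 12 leaving out 1 array. Between the knockout groups the 1 became 2 with centred arrays, 5 with a trended spread, 4 with a trended and robust one, 0 with no filter, with the replicate block and with only the 4 arrays compared, and 0 to 4 leaving out 1 array. In AA-supplemented knockouts against wild type 0 became 2 with a trended spread, robust or not, and 0 to 1 leaving out 1 array. The causes were not tested. Signs turned for Akr1c6 in AA-supplemented knockouts against wild type with quantile normalisation (-0.0235) and centring (-0.0098), and ran from -0.0241 to 0.0317 leaving out 1 array. The other ranges that crossed 0 when leaving out 1 array were -0.0519 to 0.0012 between the knockout groups and -0.0494 to 0.0064 in AA-deficient knockouts against wild type for Akr1c6, and -0.0240 to 0.0167 between the knockout groups for Hsd17b11. In AA-supplemented knockouts against wild type they were -0.158 to 0.0566 for Hsd3b2, -0.136 to 0.0403 for Hsd3b5 and -0.0182 to 0.0695 for Hsd17b2. The replicate numbers shared by the labels do not state a pairing, and the differences between replicates 1 and 2 correlated over genes at -0.369, 0.358 and -0.284 between pairs of groups; the replicate block left Hsd3b2 against wild type at an adjusted p of 0.0935.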
